A study of Mus musculus with 20 samples.

Results

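Clathrin-mediated endocytosis was described through 10 genes in single mouse podocytes, the epithelial cells whose interlocking foot processes cover the capillaries of the kidney filter. The genes were chosen by symbol: the clathrin chains Cltc, Clta and Cltb, the AP-2 adaptor subunits Ap2m1, Ap2b1 and Ap2a1, the dynamins Dnm1 and Dnm2, synaptojanin 1 (Synj1) and the endophilin gene Sh3gl1. All 10 were present among the 39179 genes of the expression table. The table holds 20 podocytes, each sequenced as its own library after capture on a Fluidigm C1 instrument, which isolates and lyses cells in separate wells. They come from glomeruli of 1 wild-type male C57BL/6 mouse aged 8 weeks and form 1 group with no treatment. Cells of 1 animal are not replicates of a condition, so the values below are a description without p-values, and each SD is the spread between cells. Cells carry the numbers 1 to 20.

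In clathrin-mediated endocytosis, the AP-2 complex binds membrane lipids and receptor tails and recruits clathrin, which assembles into a lattice of heavy and light chains around a pit. Endophilin curves the neck of the pit and recruits dynamin, a GTPase that cuts the vesicle free, and synaptojanin, a lipid phosphatase that lets the coat come off. In mice, loss of dynamin 1 and 2 in podocytes, of synaptojanin 1, or of all endophilin A proteins leads to protein in the urine with disturbed foot processes, and nephrin of the slit diaphragm is taken up by endocytosis.

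The reads assigned to genes ranged from 4205562 to 10448491 per cell, with a median of 6753753, as recovered from the values, which are in RPKM (reads per kilobase of gene, scaled to the depth of the library). From 1 RPKM upward a gene counts here as found, and 2371 to 4977 genes were found per cell. For the 10 endocytosis genes, 3 reads were worth 0.0959 to 0.721 RPKM, and a gene with no read could still stand at up to the value of 3 reads. These limits take in the counting error of reads alone, since reads copied from the same molecule by PCR are not separate observations. The binomial intervals below take in the number of cells alone and treat the cells of 1 animal as independent draws. Each cell held 14 or 15 of 15 podocyte markers. Of 14 mesangial and mural markers, 7 to 10 were found in cells 5, 6, 10, 11 and 14, with a summed level of 2140 to 5564 RPKM, against at most 1 marker and 84.7 RPKM in any other cell; Acta2, Tagln and Ren1 were found in none. Of 16 endothelial markers, 11 were found in cell 8 and 6 in each of cells 5 and 10, and Egfl7, Erg and Robo4 in none. Cells 5, 6, 8, 10, 11 and 14, with at least 6 markers of either list, are called marker-rich here. The other 14 cells held at most 1 mesangial and at most 2 endothelial markers each, with endothelial sums of up to 329 RPKM. Results resting on the 6 marker-rich cells are given with and without them, except for the other genes of the wider pathway. The part of the other cell types' RNA in results resting on these cells was not tested.

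The genes of the AP-2 medium chain and the clathrin heavy chain, Ap2m1 and Cltc, were found in nearly every podocyte, in 19 and 18 of 20 cells. The light chains, Ap2b1 and the alpha subunit gene Ap2a2 were each found in 9 to 12 cells, Synj1 in 5, Dnm2 in 4, Sh3gl1 and Ap2a1 in 1 each, and Dnm1 in none. Such low counts were common: 30% of all genes were found in any cell, and 61.5% of those in no more than 5. None of the 10 genes was found in all 20 cells, as were 0.664% of all genes in the table and 2.21% of the 11749 genes found in at least 1 cell. Of the 10, 4 (Cltc, Ap2m1, Ap2b1 and Cltb) were found in at least 10 cells, which holds for 6.43% of all genes and 21.4% of those found in at least 1 cell.

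**Figure D1:**
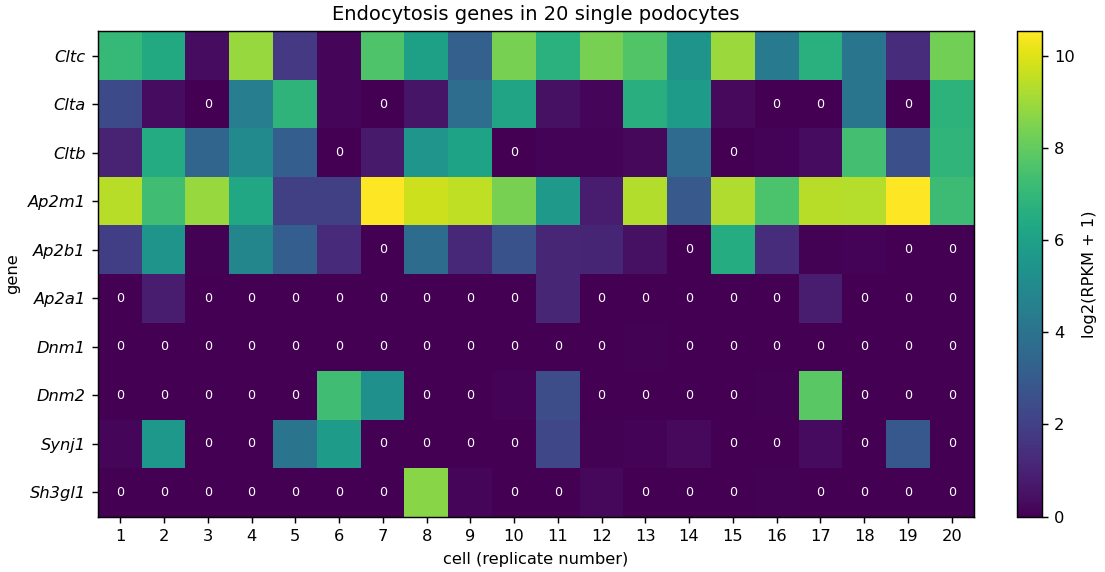
Level of the 10 endocytosis genes (rows) in each of 20 single podocytes (columns), as log2(RPKM + 1) on a colour scale; a 0 marks a value of exactly 0 RPKM. The Cltc and Ap2m1 rows hold no 0, whereas Dnm1, Dnm2 and Sh3gl1 are at or near 0 in most cells and Dnm2 and Sh3gl1 are high in a few.

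Cltc encodes the clathrin heavy chain, the 3-legged scaffold of the lattice, and lies on chromosome 11 (86694351 to 86757565, minus strand, build GRCm38, as are all positions here). Its lowest, median and highest levels were 0.111, 91.9 and 492 RPKM, in a mean of 146 ± 161 RPKM (SD, n = 20 cells). The highest level, in cell 15, rested on 5757 reads and the lowest, in cell 6, on 2 reads. After cell 15 came cells 4, 10, 12 and 20, at 477, 330, 326 and 311 RPKM, while cells 3 and 6 fell short of 1 RPKM with 5 and 2 reads. Found in 18 of 20 cells, Cltc had a share of 90% (exact binomial 95% interval 68.3% to 98.8%). Its mean was the 690th highest of the whole table, and 3.92% of the genes found in any cell were found in more cells.

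Clta and Cltb encode the light chains, which bind the heavy chain and tune the lattice. Clta (chromosome 4, 44004452 to 44032846, plus strand) had a lowest level of 0, a median of 0.433 and a highest level of 113 RPKM, in cell 5, with 1139 reads. It was found in 9 cells, where its median was 55.3 RPKM, and had no more than 6 reads in each of the other 11. Without the 6 marker-rich cells it was found in 6 of 14, and its median over the 14 was 0.242 RPKM. Cltb (chromosome 13, 54592401 to 54611344, minus strand) had a lowest level of 0, a median of 2.97 and a highest level of 167 RPKM, in cell 18, with 1494 reads. Where found, in 11 cells, it had a median of 32.1 RPKM, and it had at most 8 reads in any other cell.

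The light chains were found together or missed together in 14 of 20 cells. Their means were 25.1 ± 40.2 RPKM for Clta and 27.7 ± 47.2 RPKM for Cltb (SD, n = 20 cells). The mean of Cltb was thus 1.11 times that of Clta, or 0.866 times with the longest transcripts as lengths. Over the 14 cells that are not marker-rich the means were 18.7 ± 36.8 RPKM for Clta and 35.0 ± 54.3 RPKM for Cltb (SD, n = 14 cells). There the mean of Cltb was 1.87 times that of Clta, and Clta was the higher in 4 cells. The SDs are the spread between cells and do not measure the gap between the means, which was not tested. Both were found in 7 cells (1, 4, 5, 9, 14, 18 and 20), Clta without Cltb in cells 10 and 13, Cltb without Clta in cells 2, 3, 8 and 19, and neither in the remaining 7. In cell 13, Clta stood at 95.4 RPKM with 1071 reads and Cltb at 0.184 RPKM with 3 reads. Cell 8 showed the opposite, with 44.4 RPKM and 788 reads of Cltb against 0.491 RPKM and 6 reads of Clta. Among the 13 cells with either chain, Clta was the higher in 5. The heavy chain was found with a light chain in 12 cells and without one in 6 (cells 7, 11, 12, 15, 16 and 17). Those 6 include cell 15, which had the highest Cltc level of all, with 1 read of Clta and 0 of Cltb. Cell 3 held a light chain, Cltb at 9.90 RPKM, with 5 reads of Cltc.

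Per length, heavy chain RNA exceeded the sum of the light chains in 12 of 20 cells, and was lower in 8. The median of Cltc was 3.36 times that of the summed light chains (27.4 RPKM), and its mean was 2.76 times theirs. Without the 6 marker-rich cells, the ratio of the means was 3.15. In the assembled coat each heavy chain carries a light chain, so the ratio of the RNA levels is given here only as measured.

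**Figure D2:**
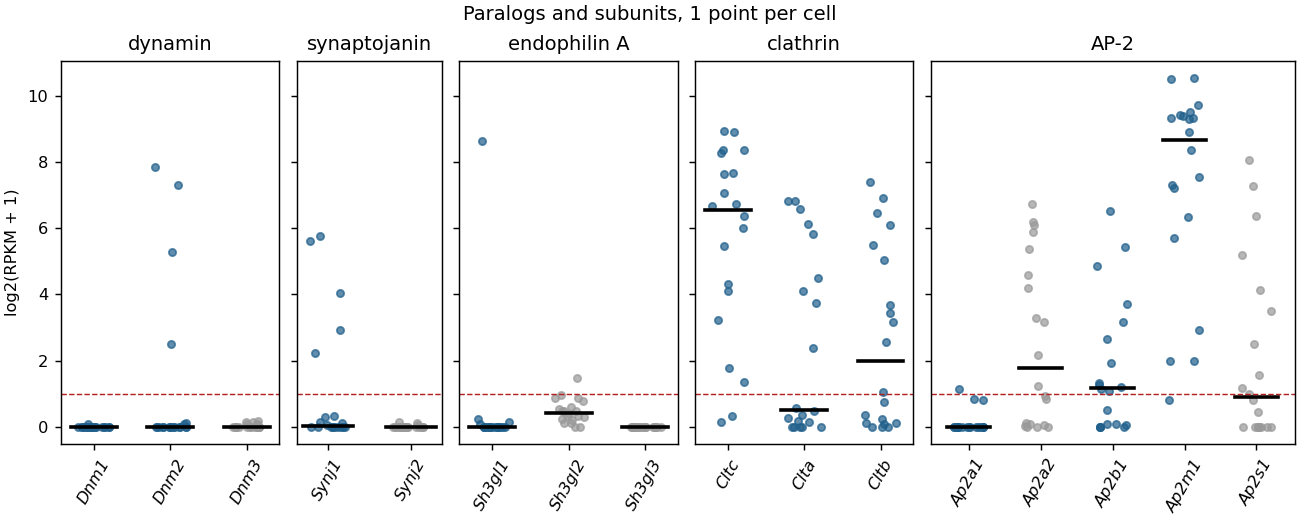
Levels as log2(RPKM + 1) of each gene family, with 1 point per cell (n = 20), a black bar at the median and a dashed line at 1 RPKM; blue points are the 10 endocytosis genes and grey points their paralogs or partner subunits. Ap2m1 and Cltc have medians of 403 and 91.9 RPKM, and the dynamin, synaptojanin and endophilin genes have a median below 1 RPKM.

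Ap2m1, the medium subunit of AP-2 that reads sorting signals in receptor tails, had the highest level of the 10. It lies on chromosome 16 (20535478 to 20544909, plus strand). Its lowest, median and highest levels were 0.749, 403 and 1474 RPKM, with a mean of 460 ± 450 RPKM (SD, n = 20 cells), the 138th highest mean of the table. The highest level, in cell 7, rested on 9884 reads, and cell 19 followed with 1450 RPKM and 10706 reads. The low cells were cell 12, with 6 reads, cells 5 and 6, with 25 and 19 reads, and cell 14, with 40 reads and 6.58 RPKM; every other cell held at least 51.5 RPKM. Cells 5, 6 and 14 all hold mesangial markers, as do cells 10 and 11, where Ap2m1 stood at 328 and 51.5 RPKM. In the 14 cells that are not marker-rich, the median of Ap2m1 was 634 RPKM, and its mean was 569 ± 458 RPKM (SD, n = 14 cells).

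The level of Ap2m1 carries a pair of uncertainties. The gene length behind its deposited values was 990 bases, against 2937 bases for its longest transcript and 950 for the mean of its annotated transcripts. With the longest transcript as length its median would be 136 RPKM and that of Cltc 39.2 RPKM, so Ap2m1 would remain the higher. Of all windows of 50 bases in that transcript, 38.0% also occur in Gm13509, a processed pseudogene on chromosome 2, which reached at most 0.226 RPKM. How reads that match several places were counted was left unsaid by the sources used here. In the same cell, Ap2m1 was above Cltc in 14 of 20 cells. Their means were 460 and 146 RPKM, and the difference was not tested.

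Ap2b1 encodes the beta subunit, which binds clathrin, and lies on chromosome 11 (83299024 to 83405035, plus strand). It was found in 12 cells but at low levels, with a lowest value of 0, a median of 1.24 and a highest value of 91.8 RPKM. The highest value, in cell 15, rested on 1111 reads; cells 2 and 4 followed with 42.5 and 27.9 RPKM, and cells 7, 14, 19 and 20 had no read. Several of its calls lie close to the threshold: 6 of the 12 cells lay below 5 RPKM. Without the 6 marker-rich cells, it passed 1 RPKM in 7 of 14, where its median over the 14 was 0.762 RPKM, and with the longest transcript as gene length it was found in 7 of all 20.

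The alpha subunit, which ties AP-2 to membrane lipids, was represented by Ap2a2 and hardly by Ap2a1. Ap2a1 (chromosome 7, 44900373 to 44929496, minus strand) had a read in 3 cells, with 7, 13 and 13 reads in cells 2, 11 and 17, and passed 1 RPKM in cell 11 alone, at 1.21 RPKM. Fuz overlaps Ap2a1 on the opposite strand, as Ciz1 does Dnm1. The sources used here do not say whether the counting used strand, so reads from bases shared by such a pair might not be told apart. Its paralog Ap2a2, found in 11 cells, had a median of 2.44 and a highest value of 105 RPKM, in cell 19, on 3651 reads. In the 14 cells that are not marker-rich, Ap2a2 was found in 7, with a median of 0.717 RPKM, and Ap2a1 in none. Ap2a2 was the higher in 16 of 20 cells and Ap2a1 in 1, with both at 0 in 3. The means were 20.4 ± 31.3 RPKM for Ap2a2 and 0.136 ± 0.342 RPKM for Ap2a1 (SD, n = 20 cells). Ap2s1, the small subunit, was found in 9 cells and in 4 of the 14. Its median was 0.875 RPKM over all cells and 0.181 RPKM over the 14, and it was highest in cell 14, at 265 RPKM, and cell 11, at 154 RPKM, both with mesangial markers.

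The subunits of AP-2, which form a complex of an alpha, a beta, a medium and a small chain, were thus far apart in RNA level. Ap2m1 was higher than Ap2b1 in 18 of 20 cells and higher than Ap2a1 and Ap2a2 summed in 18, with 22.5 times the mean of that sum and 46.7 times the mean of Ap2b1. These ratios depend on the gene lengths: with the longest transcript of each gene they were 7.61 and 30.8. With the deposited values of the 14 cells that are not marker-rich, they were 32.4 and 47.1. At least 1 alpha gene together with Ap2b1 and Ap2m1 was found in 6 cells, namely 1, 2, 5, 6, 8 and 11. All 4 kinds of subunit were found in 3 cells (5, 6 and 11), each of which also held 8 or 10 of the 14 mesangial markers, and in none of the 14 cells that are not marker-rich. At 1 RPKM, cell 5 was the 1 cell that held all 4 together with the heavy chain, at 2.39 RPKM, and a light chain.

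Dynamin RNA came from Dnm2, and from few cells. Dnm2, the form of dynamin expressed in most tissues, lies on chromosome 9 (21424908 to 21507759, plus strand) and was found in cells 6, 7, 11 and 17. The levels there were 157, 37.9, 4.69 and 230 RPKM, on 2100, 534, 65 and 4988 reads. Cells 10 and 16 had 1 read each, and the other 14 cells had none, which at their depth allows up to 0.141 RPKM in cell 8, the deepest of the 14, and 0.343 RPKM in cell 15, the shallowest. The mean over all cells was 21.5 ± 60.5 RPKM (SD, n = 20 cells) and the median 0; cell 17 alone supplied 53.5% of the summed level. The share of cells with Dnm2 found was 20% (exact binomial 95% interval 5.73% to 43.7%). Cells 6 and 11 are among those with mesangial markers, and Dnm2 was found in 2 of the 14 cells left without the 6. Tmed1, which overlaps Dnm2 on the opposite strand, stood at 23.5 RPKM in cell 6 and 177 RPKM in cell 11 but at 0 in cells 7 and 17. It was highest, at 384 RPKM, in cell 9, where Dnm2 had no read.

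Dnm1, the dynamin known from neurons, had 1 read in all 20 libraries, in cell 13 (chromosome 2, 32308471 to 32353338, minus strand). It was found in 0 of 20 cells. For the share of cells in which it is found, this allows up to 15% by the limit of 3 counts and up to 16.8% by the exact binomial 95% interval. Dnm3, known from brain and testis, had 1 or 2 reads in each of 6 cells and was found in none. Over all cells, Dnm2 was above Dnm3 in 6, below it in 3, on 1 or 2 reads of Dnm3, and equal in 11. Dnm1l, the related GTPase that divides mitochondria, passed 1 RPKM in 10 cells, with a highest level of 382 RPKM and a median of 1.45 RPKM.

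Synj1, the lipid phosphatase that helps release the coat, lies on chromosome 16 (90936092 to 91011308, minus strand) and was found in cells 2, 5, 6, 11 and 19. The levels in that order were 48.0, 15.6, 53.1, 3.71 and 6.54 RPKM, on 843, 392, 1024, 74 and 146 reads. Another 5 cells had 1 to 8 reads and 10 had none. The mean was 6.38 ± 15.6 RPKM (SD, n = 20 cells). Cells 5, 6 and 11 hold mesangial markers, and without the 6 marker-rich cells Synj1 was found in 2 of 14 cells. Its paralog Synj2 had 1 to 3 reads in 3 cells and reached 1 RPKM in none. Synj1 was the higher in 9 cells and Synj2 in 1, and they were equal in 10.

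Sh3gl1 encodes endophilin A2, the widely expressed endophilin A, and lies on chromosome 17 (56016750 to 56036635, minus strand). Its level rested on a single library: cell 8 held 399 RPKM and 8462 reads, whereas cells 9, 12 and 16 had 2, 3 and 1 reads and the other 16 had none. The mean of 20.0 ± 89.3 RPKM (SD, n = 20 cells) is therefore the value of cell 8, which supplied 99.9% of it, and without the 6 marker-rich cells it was 0.0240 RPKM. Cell 8 held 11 of 16 endothelial markers, with a summed endothelial level of 2963 RPKM, the highest of the 20. Mpnd, on the opposite strand, was at 0 in cell 8. Sh3gl2, the endophilin known from brain, was spread differently: it had 1 to 32 reads in 18 cells, had a median of 0.340 RPKM, and reached 1 RPKM in cell 16 alone, at 1.78 RPKM. Sh3gl3 had no read in any cell.

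Dnm2, Synj1 and Sh3gl1, whose products act together at the neck of the pit, were each found in at most 5 cells, which leaves little room for shared cells. At least 1 of the 3 was found in 8 cells (2, 5, 6, 7, 8, 11, 17 and 19), Dnm2 with Synj1 in cells 6 and 11, and all 3 in none. In 12 cells none of them was found. Of those 12, 11 had Cltc and 11 had Ap2m1, which were found in 18 and 19 of all 20 cells. Both cells with Dnm2 and Synj1 hold mesangial markers, and the pair was found in none of the 14 cells that are not marker-rich.

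A cell held a median of 4 of the 10 genes, from 2 in cells 3 and 12 to 6 in cells 5 and 11. Cell 3 held Cltb and Ap2m1, cell 12 held Cltc and Ap2b1, and cell 11 held Dnm2, Synj1, Cltc, Ap2a1, Ap2b1 and Ap2m1. Over the 20 cells of 1 animal, the Spearman correlation of this number was 0.455 with the number of all genes found in the cell and -0.164 with its total reads. Without the 6 marker-rich cells, the median was 3.5 of 10, from 2 to 5. The values were split between very few and very many reads. Of the 200 values of 10 genes in 20 cells, 88 had no read, 30 had 1 to 10 reads, 21 had 11 to 99, and 61 had at least 100. A value of 1 RPKM or more stood on at least 12 reads in every case.

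**Figure D3:**
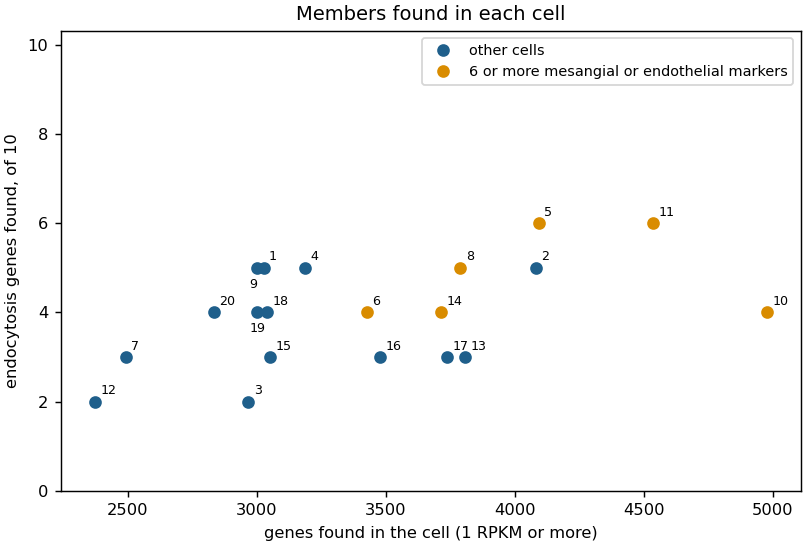
Number of the 10 endocytosis genes found at 1 RPKM or more (vertical axis, of 10) against the number of all genes found (horizontal axis) in each of 20 cells, labelled by cell number; orange points are the 6 cells with at least 6 mesangial or at least 6 endothelial markers. Cells 5 and 11, with 6 of the genes, are among these.

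On the linear scale, the light chains were among the less variable genes of their level. The measure was the squared coefficient of variation relative to its trend on the mean. It was taken over the 5470 genes whose mean reached 10 RPKM, 6 of the 10 among them. Clta lay at the 7.79th percentile of all these genes, Cltb at the 10.8th, Cltc at the 21.3rd, Dnm2 at the 49.8th, Ap2m1 at the 60.2nd and Sh3gl1 at the 93.3rd. Without the 6 marker-rich cells, Clta lay at the 18.6th, Dnm2 at the 69.5th and Ap2m1 at the 41.9th percentile. The order also depended on the scale: by the SD of log2(RPKM + 1), Ap2m1 lay at the 95.4th percentile, Clta at the 83.5th and Sh3gl1 at the 12.9th.

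**Figure D4:**
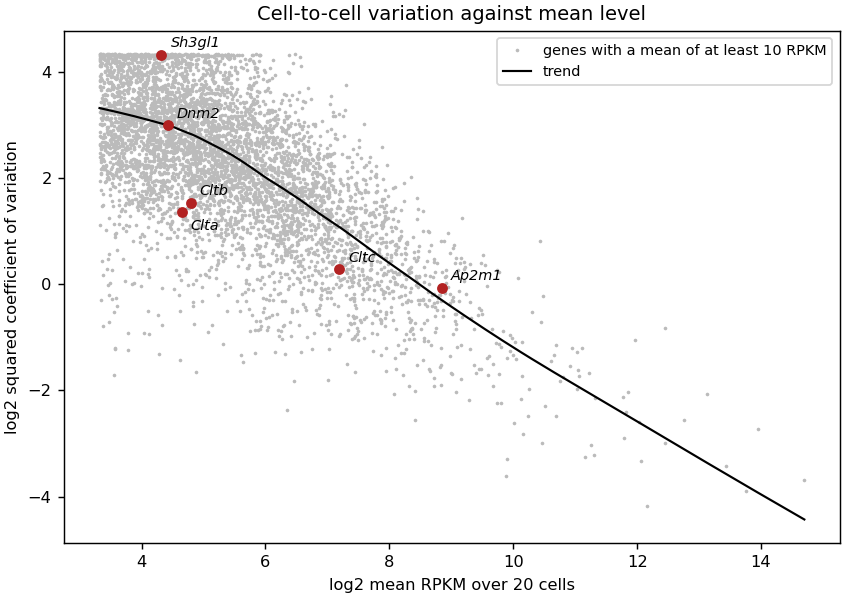
Log2 squared coefficient of variation over 20 cells (vertical axis) against log2 mean RPKM (horizontal axis) for 5470 genes (grey), with their trend (black line) and the 6 endocytosis genes whose mean reached 10 RPKM (red). Clta and Cltb lie below the trend, Dnm2 on it and Sh3gl1, which was high in 1 cell, near the upper edge.

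The 4 genes found in at least 10 cells showed correlations of either sign. Over 20 cells that share an animal and differ in depth, their 6 pairwise Spearman correlations ranged from -0.235 for Cltb with Cltc to 0.239 for Cltc with Ap2b1, with a median of -0.107. Over the 14 cells that are not marker-rich the median was -0.286, from -0.451 for Cltc with Ap2m1 to 0.329 for Cltc with Ap2b1. Among all genes found in at least 10 cells whose mean reached 10 RPKM, those most like Cltc over the 20 cells were Plekho1 (Spearman 0.767), Rtn3 (0.693) and Ccnt1 (0.672). Those most like Ap2m1 were Anp32b (0.697) and Samd8 (0.693). For Dnm2, with no read in 14 cells, they were Sec11c (0.721), Gtpbp4 (0.654) and Tmem123 (0.623). Over the 14 cells that are not marker-rich, the value was 0.413 for Gtpbp4 and 0.545 for Anp32b, and lay between 0.675 and 0.815 for the other genes named. These are the highest of about 2185 correlations each.

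The wider pathway was read from 118 genes in 15 lists, the 10 genes included. Of the other 108 genes, 4 were found in all 20 cells, 30 in 10 to 19, 59 in 1 to 9 and 15 in none. Over the whole table, 0.664% of genes were found in all 20 cells and 6.43% in at least 10. Among genes found in at least 1 cell, these shares were 2.21% and 21.4%. The 4 in every cell were Fnbp1l, a membrane-bending protein that links the pit to actin assembly, Sgip1, a partner of AP-2 related to the early coat factor FCHO, Cavin1, a coat protein of caveolae, and Pak1, a kinase of actin remodelling and macropinocytosis. Fnbp1l ranged from 13.8 to 669 RPKM, with a median of 179. Sgip1, known from brain, ranged from 4.49 to 856 RPKM, with a median of 74.7. Cavin1 had a median of 294 RPKM and Pak1 one of 378 RPKM. Cavin1 was not typical of the 9 caveolae genes, of which 2 were found in 10 to 19 cells and 6 in 1 to 9. Among those 6 were Cav1, found in 3 cells, Cav2 in 4, Cavin2 in 2 and Cavin3 in 1. Their highest levels, in that order, were 54.8, 205, 35.8 and 36.9 RPKM, in the marker-rich cells 8, 14, 11 and 10. Counts of these genes without the marker-rich cells are not given here.

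Of 7 genes for actin at the pit, 5 were found in at least 10 cells, and the median over the list was 16 cells, against 8 for the 21 coat nucleators and cargo adaptors and 4 for the 13 membrane-bending proteins. Myo6, a motor that moves vesicles inward, had a median of 193 RPKM in 17 cells, and Myo1e, a motor of the pit that is mutated in inherited nephrotic disease, 77.6 RPKM in 19. Uncoating needs Hspa8, the chaperone that strips clathrin, which had a median of 191 RPKM and passed 1 RPKM in 16 cells. Of its clathrin-specific partners, Gak, found in most tissues, was found in 11 cells and Dnajc6, the form known from neurons, in none.

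**Figure D5:**
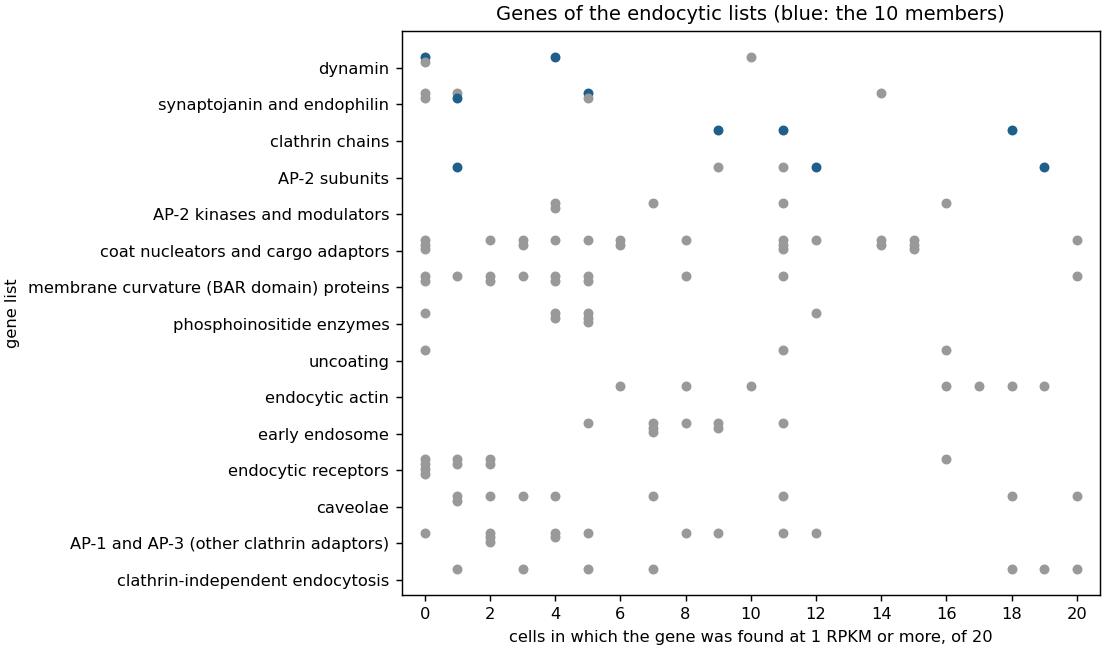
Number of cells, of 20, in which each gene of 15 endocytic lists was found at 1 RPKM or more; each point is a gene, stacked where counts are equal, with the 10 endocytosis genes in blue and other genes in grey. Sgip1, Fnbp1l, Cavin1 and Pak1 stand at 20 cells, and 16 genes stand at 0.

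The 16 pathway genes found in no cell include Dnm1, Dnm3, Synj2 and Sh3gl3 of the families above. Among coat factors they are Fcho1, an early coat nucleator, Snap91, the neuronal relative of Picalm, and Arrb2, an adaptor for signalling receptors. Bin1 and Pacsin1 bend membranes, Pip5k1b makes the lipid that AP-2 binds, and Ap1m2 belongs to the AP-1 adaptor of polarised epithelia. Also among the 16 are Dnajc6 and the receptor genes Lrp2, Cubn and Vldlr, of which Lrp2 and Cubn take up protein in the proximal tubule. Of the 9 receptor genes, Igf2r, which sorts lysosomal enzymes, was the 1 found in at least 10 cells, at a median of 22.3 RPKM in 16 cells. Each remaining list had its highest median in a gene found in 10 to 19 cells. These were Sh3glb1, an endophilin B, at 26.4 RPKM, Bmp2k, a kinase related to the AP-2 kinase AAK1, at 14.7 RPKM, Ap3m1 of the AP-3 adaptor at 7.05 RPKM, Rab5a of early endosomes at 3.86 RPKM and Pip5k1a at 2.56 RPKM.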

How the data were processed

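The authors deposited 1 table of RPKM values for 39179 Ensembl genes in 20 single-cell libraries, per the file headers. TopHat2 2.0.12, HTSeq 0.6.1 and build GRCm38 are named in the submitters' processing notes; their settings were left unsaid there. Columns were matched to samples by title, and cells numbered in accession order. The 1 blank value was set to 0. Symbols and positions came from GENCODE M21, which matched 37607 IDs; lengths of transcripts came from it too. Library totals were the most frequent value of the total implied by genes with 1 transcript, and whole reads came out, within 0.001 read, for 13170 of 13170 genes read in at least 2 cells. The smallest fitting gene length was kept, so reads of a gene with few values could be a fraction of the true number. Both steps were tested on simulated data. With 1 group, the recovered reads went into no test; they give depth and counting limits. The trend was a lowess fit (statsmodels 0.14.6, span 0.3). Correlations among the genes were limited to those found in at least 10 cells, a choice made after seeing the data.

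The members and lists were chosen with earlier results of these data known. Named were the 10 genes, their paralogs or partner subunits, list genes found in every cell or in none, the highest median of each list, and the 3 genes most like Dnm2, Cltc and Ap2m1. Opposite-strand genes, the pseudogene, Gak, Myo1e, Cav1, Cav2, Cavin2 and Cavin3 were named for context after their values were seen. Alternatives were other thresholds, scalings, lengths, cells and measures. Protein sequences were not used here, and a few genes that these rules name are not reported here.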

Additional observations from a re-analysis of the deposited data

How the results depend on the processing

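A count or ratio was taken as moved when it changed by over 1.5 times, and a median or correlation when it changed by more than its SD between cells or pairs, and a percentile by 10 points or more. That SD is wide: the medians of Ap2m1 and Cltc, 403 and 91.9 RPKM, were 136 and 39.2 RPKM with the longest transcript as length and 687 and 156 RPKM with each cell rescaled to 1 sum, all within it. Counting any value above 0 RPKM as found gave 2 of the 10 genes in every cell (Cltc and Ap2m1) and a median of 6 per cell; leaving out cell 12, which had the fewest genes, gave 1, Ap2m1. Without the 6 marker-rich cells, 14 cells remain, so counts of cells are lower by construction. Dnm2 was then above Dnm1 in 3 cells (6 of 20 with all), above Dnm3 in 3 (6 of 20), Clta above Cltb in 4 (9 of 20), Ap2a2 above Ap2a1 in 10 (16 of 20), Synj1 above Synj2 in 5 (9 of 20) and Sh3gl1 above Sh3gl2 in 0 (1 of 20). The median correlation of the genes was 0.107 by Pearson on log2(RPKM + 1) and 0.0411 on log2(RPKM + 0.1), in place of -0.107, and -0.286 without the 6 cells, so its sign depends on the measure; the cause was not tested. The length of the longest transcript kept the order of Ap2m1 and Cltc, and Clta was then above Cltb in 10 cells. Among ratios of means, alternatives added after seeing the data, Ap2m1 over Ap2s1 was 6.05 with the longest transcripts and 71.1 without the 6 cells. No paired analysis was possible because there is 1 group. At these depths, a gene with no read could not be told apart from one at the value of 3 reads, and loss of transcripts at capture could not be told apart from absence.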
